A study of Mus musculus with 10 samples.

Results

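Binding of p65 at 5 genes of the interleukin-1 (IL-1) system was examined, namely Il1a, Il1b, Il1rn, Il1r2 and Il1rap, out of 21887 protein-coding genes. The members were taken by name for their place in the IL-1 system, and a peak was assigned to a member when it overlapped the gene body extended by 10 kb on each side. By this rule 176 of the 536143 peaks in 9 lists belonged to the members. The lists came from RAW264.7 cells, a wild-type mouse macrophage-like line derived from an Abelson virus tumour. Treatment lasted 12 h and was with the solvent DMSO (3 libraries), with DMSO plus LPS (lipopolysaccharide, the outer-membrane molecule by which macrophages sense bacteria; 3 libraries), or with LPS and skatole, a product that gut bacteria make from tryptophan (LPS+Skatole, 3 libraries). Each library was made by CUT&Tag from 200000 cells. In this assay an antibody brings a transposase to a bound protein, here p65, and the enzyme releases the nearby DNA for sequencing. The labels name a p65 antibody and the methods of the study one against phosphorylated p65, so the form captured was not settled. A sample without primary antibody (Blank) was not analysed here, so the peaks are not corrected for signal that arises without antibody.

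p65 (RelA) is the main activating subunit of NF-κB. LPS frees it from its inhibitor in the cytoplasm, and it then enters the nucleus and binds κB sites in DNA. Il1a and Il1b encode IL-1α and IL-1β, the ligands that drive fever, leukocyte recruitment and cartilage breakdown, and both are classic NF-κB target genes in macrophages. Il1rn encodes the IL-1 receptor antagonist, which occupies the receptor without signalling and is itself induced by LPS. Il1r2 encodes the decoy receptor, which binds IL-1 but lacks the signalling domain. Il1rap encodes the accessory protein that joins the receptor to form the signalling complex. A p65 peak shows where the factor was captured and is not a measure of the transcript or protein.

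The sequences before the starts are shown first, because a peak at the start itself separated the members. Each is 250 bases long and read 5′ to 3′ on the strand of the gene, from RefSeq on GRCm38.p6. They lie at chr2:129309973-129310222 (minus strand, Il1a), chr2:129371140-129371389 (minus strand, Il1b), chr2:24345121-24345370 (plus strand, the last of the 3 listed starts of Il1rn) and chr16:26581455-26581704 (plus strand, Il1rap). Capitals mark each match to TATAAA or to GGGNNNNNCC, a loose form of the κB site, on either strand.
Il1a: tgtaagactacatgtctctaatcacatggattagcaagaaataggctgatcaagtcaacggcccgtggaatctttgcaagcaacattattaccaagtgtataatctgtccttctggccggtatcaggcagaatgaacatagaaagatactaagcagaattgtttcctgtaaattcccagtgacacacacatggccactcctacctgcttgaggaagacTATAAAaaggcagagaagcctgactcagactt
Il1b: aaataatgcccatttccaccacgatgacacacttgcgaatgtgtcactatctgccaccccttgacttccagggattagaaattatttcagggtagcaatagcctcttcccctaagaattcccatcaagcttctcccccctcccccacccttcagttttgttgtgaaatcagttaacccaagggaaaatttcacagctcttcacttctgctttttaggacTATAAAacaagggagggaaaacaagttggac
Il1rn: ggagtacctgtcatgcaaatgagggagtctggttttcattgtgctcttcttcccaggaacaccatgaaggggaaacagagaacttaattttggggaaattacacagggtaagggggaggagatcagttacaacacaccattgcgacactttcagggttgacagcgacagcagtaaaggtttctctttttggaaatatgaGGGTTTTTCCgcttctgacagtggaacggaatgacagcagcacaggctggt
Il1rap: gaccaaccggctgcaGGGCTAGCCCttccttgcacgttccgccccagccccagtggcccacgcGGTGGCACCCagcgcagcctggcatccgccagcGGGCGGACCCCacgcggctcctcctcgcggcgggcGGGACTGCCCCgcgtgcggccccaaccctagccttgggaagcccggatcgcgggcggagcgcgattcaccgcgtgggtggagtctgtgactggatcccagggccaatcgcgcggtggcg
TATAAA began 32 bases before the start of Il1a and 31 bases before that of Il1b, and was held by 13.6% of 32851 promoter windows of 300 bases (250 before and 50 after the start). The window of the last Il1rn start also held it, on the minus strand from base 15 after the start and so beyond the printed bases. GGGNNNNNCC was held by 50.8% of these windows. It was not found in the windows of Il1a, Il1b and Il1r2. It occurred once at the last Il1rn start (GGGTTTTTCC, on the plus strand from base -51) and 2 times at the first. At Il1rap it gave 9 matches, some of them overlapping. Those from bases -235, -154 and -119 were each the same stretch matched on both strands and counted for each strand. The Il1rap window was also 72% G or C, against a median of 52.7% over all windows. The stricter κB consensus, held by 8.46% of windows, had 0 matches at any member, which says only that these letters are not in these windows. The Il1rap window was rich in CpG, with 33 against a median of 7 over all windows. Il1a had 5 and Il1b 3.

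Peaks covered these windows in different libraries. At Il1rap the 300-base window had a peak in all 9 libraries, as did 20.9% of all 32851 windows. At both downstream starts of Il1rn a peak overlapped it in 0 of the DMSO, 3 of the LPS and 3 of the LPS+Skatole libraries. At Il1b it was overlapped in 0, 2 and 2 libraries, with summit counts of 28 and 20 fragments in LPS 1 and LPS 3 and of 31 and 26 in LPS+Skatole 1 and 2. At Il1a a peak reached it in 0 of the DMSO, 3 of the LPS and 0 of the LPS+Skatole libraries. The first start of Il1rn and the start of Il1r2 were overlapped in no library. Of all windows with a peak in either group, 1.19% passed from no DMSO to all 3 LPS libraries, as those of Il1a and Il1rn did, and 0.227% passed from all 3 LPS to no LPS+Skatole libraries, as that of Il1a did. These patterns at Il1a rest in part on small distances. In DMSO 1 a peak of 12 fragments ended 43 bp short of the window, while the nearest peaks in DMSO 2 and 3 were 2796 and 9889 bp away. In LPS 1 and LPS 2 the peak over the start was 2297 and 2089 bp wide and had its summit at -1766 and -1733 bp from the start, so that only its edge reached the start, and in LPS 3 a separate peak of 23 fragments had its summit at -59 bp. In LPS+Skatole 3 a peak ended 19 bp short of the window, while the nearest peaks in LPS+Skatole 1 and 2 were 1038 and 705 bp away.

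The lists differed in length and depth. The DMSO lists held 37551 to 43450 peaks, the LPS lists 55637 to 63498 and the LPS+Skatole lists 78136 to 80153. Depth was read from the genome background, the lowest local background in a list, which was 1.09 to 1.40 fragments per position in DMSO and 2.23 to 2.39 in the other libraries. To be listed, a summit had to reach 6.44 to 7.34 times this background under DMSO and 4.59 to 4.94 times otherwise, so weak peaks were easier to list after LPS. Of the 6 NF-κB target genes used as a check of the antibody (Nfkbia, Nfkb1, Nfkb2, Relb, Tnfaip3 and Tnf), all 6 had a peak within 3 kb in all 9 libraries, as did 47.9% of all 21887 protein-coding genes. The same held for 8 of 8 macrophage marker genes, 1 of 4 T cell, 1 of 3 B cell, 0 of 3 chondrocyte and 0 of 2 hepatocyte markers. This check was of presence and not of a response to LPS. Peak numbers within 3 kb were higher without overlap in LPS than in DMSO for 1 of the 6 targets. They were so for 3 of 8 macrophage, 1 of 4 T cell and 1 of 3 B cell markers (12.2% of all genes with windows of 10 kb). Nothing in the labels says that the libraries of a group came from separate cultures, so p-values measure the spread between these libraries, which may be technical. Cells were pooled in each library, so fewer cells with bound p65 and less p65 per cell cannot be told apart.

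More p65 peaks lay at Il1a, Il1b and Il1rn in LPS than in DMSO libraries. For Il1a the number of peaks was 4, 4 and 2 with DMSO, 6, 7 and 9 with LPS and 5, 9 and 8 with LPS+Skatole (replicates 1 to 3, here and below). Il1b had 2, 3 and 2, then 7, 5 and 5, then 5, 4 and 4 peaks. Il1rn, the antagonist gene, had 1, 2 and 2, then 5, 7 and 5, then 7, 6 and 6 peaks. In these 3 genes every LPS and every LPS+Skatole library lay above every DMSO library. Il1rap had 2, 4 and 1 peaks with DMSO, 2, 6 and 4 with LPS and 5, 5 and 6 with LPS+Skatole, so only LPS+Skatole stood clear of DMSO. The decoy receptor gene Il1r2 had 2, 1 and 0, then 2, 0 and 0, then 1, 0 and 3 peaks, and the groups overlapped throughout.

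**Figure D1:**
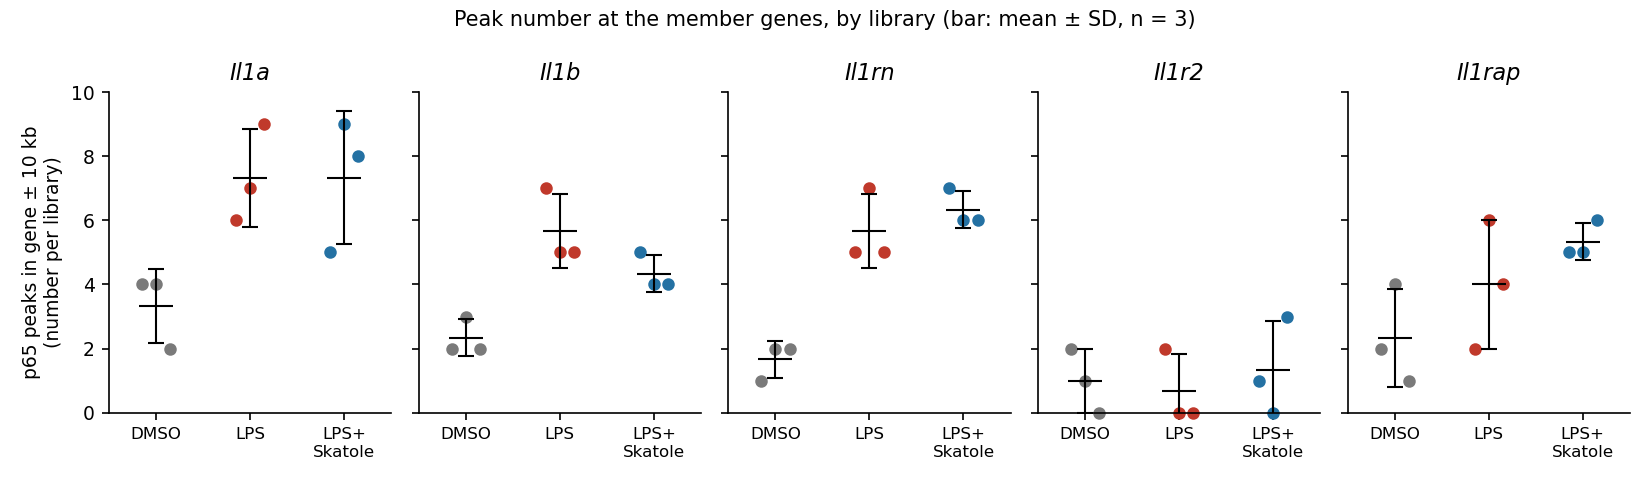
Number of p65 peaks within 10 kb of each member gene (vertical axis) in each of the 9 libraries, by treatment. Points are libraries, the long bar is the mean and the whiskers are the SD of 3 libraries; the DMSO points lie below all LPS points at Il1a, Il1b and Il1rn.

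These counts were read against those of all genes. LPS was above DMSO without overlap in 3 of 5 members and in 12.2% of the 19505 genes with a peak. LPS+Skatole was above DMSO in 4 of 5 members and in 25.4% of genes. With lists cut to an equal length of 37551 peaks, the first count was again 3 (3.09% of genes) and the second fell to 1, Il1rn (3.56%). No member was above LPS in LPS+Skatole (9.10% of genes) and none was below (0.774%). The joint exact permutation test over the 280 divisions of the 9 libraries gave p = 0.0107 for Il1b, 0.0214 for Il1rn, 0.075 for Il1a, 0.143 for Il1rap and 0.914 for Il1r2. No member passed after Benjamini-Hochberg adjustment over all genes (adjusted p = 0.259 for Il1b and Il1rn, with the exact permutation test), nor did any of the 19505 genes. At an unadjusted joint p under 0.05 there were 3083 genes. The smallest p that a pair of groups can give is 0.1, and the comparisons share their DMSO or LPS libraries. The joint exact permutation p for Il1a ranged from 0.025 (without LPS+Skatole 1) to 0.179 (without DMSO 3) over the settings tried and was under 0.05 with equal lists (0.0429), at 8 times background (0.0357) and with 50 kb (0.0357). For Il1b it was 0.0643 at 8 times background. Summed over the 5 members, a library held 10.7 ± 3.51 peaks with DMSO, 23.3 ± 1.53 with LPS and 24.7 ± 2.08 with LPS+Skatole (SD, n = 3). The median over single genes also rose, from 1.67 to 2.67 to 3.33. A sum over 5 genes and a median of single genes are on unlike scales, so the sizes of these rises cannot be compared directly.

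Pooled over the 9 libraries, the ligand and antagonist genes were densely covered for their length, and the receptor genes were not. Il1a had 0.196 peaks per kb of window, averaged over the libraries, Il1b 0.155 and Il1rn 0.132, at the 95.8th, 90.3rd and 85.2nd percentile of all genes with a peak. Il1rap had 0.0231 peaks per kb and Il1r2 0.0165, at the 30.9th and 26.1st percentile. The median gene had 0.0522. Density depends on length, and the Il1rap window was 168.6 kb, against 26.6 to 34.6 kb for Il1a, Il1b and Il1rn. By mean number of peaks, without regard to length, Il1rap stood at the 68.3rd percentile, near Il1b (70.7th) and Il1rn (75.3rd). On that measure Il1a stood at the 85.8th and Il1r2 at the 27.3rd percentile. These averages mix groups that differed. At Il1rn the mean number of peaks was 1.67 with DMSO, as at the median gene, and 5.67 with LPS and 6.33 with LPS+Skatole. Its pooled density therefore came mostly from the LPS and LPS+Skatole libraries.

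The number at Il1b depended on the window. With 3 kb on each side, Il1b had 1 peak in each DMSO library, 4, 3 and 3 with LPS and 2, 2 and 2 with LPS+Skatole, so that every LPS+Skatole library lay below every LPS library. The LPS peaks beyond the site 2.35 kb upstream, present in all 9 libraries, differed in place between libraries. The summit 7.07 kb downstream (46 fragments) was in LPS 3 only, and those 3.71 and 0.88 kb downstream (24 and 26 fragments) were in LPS 2 only. No summit site at Il1b passed from all 3 LPS to no LPS+Skatole libraries. With 50 kb on each side, a span that also takes in part of the Il1a neighbourhood, it had 7, 6 and 4, then 17, 17 and 15, then 14, 12 and 14 peaks, and LPS+Skatole again lay below LPS without overlap. Of all genes with a peak in such windows, 0.684% and 0.465% lay below in the same way. The joint exact permutation p was 0.00357 in both windows, the smallest it can be, and 0.318 and 0.0949 after adjustment over all genes. With 10 kb the joint exact permutation p was 0.0107. The joint test has no direction and takes in the DMSO libraries, so it does not measure the step from LPS to LPS+Skatole. For that pair alone p cannot go below 0.1 in any window. With 10 kb the ranges of the pair touched at 5 peaks (exact permutation test for the pair, p = 0.3). With lists of equal length the numbers within 10 kb were 2, 3 and 2, then 4, 5 and 5, then 4, 4 and 3, and LPS and LPS+Skatole overlapped.

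Merged over the 9 lists, the peaks at the members fell into 52 regions. Il1a had 11, Il1b 9, Il1rn 9, Il1r2 7 and Il1rap 16. Of the 52, 5 were called in all 9 libraries and 31 in 1 library, against 5.88% and 71.3% of all 235070 regions. None of the member regions was gained in LPS against DMSO (a peak in all 3 LPS and in 0 DMSO libraries; 1.65% of all regions with a peak in either group, the base of the next shares too), gained in LPS+Skatole against LPS (0.583%) or lost there (0.129%), or gained in LPS+Skatole against DMSO (2.36%).

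Merging hid changes of summit. When summits within 250 bp of each other were chained into 72 sites, 2 sites were absent from all DMSO libraries and present in all 3 LPS and all 3 LPS+Skatole libraries, against 1.32% of the sites seen in either group for LPS over DMSO and 1.65% for LPS+Skatole over DMSO. No member site was gained (0.448% of all sites) or lost (0.171%) between LPS and LPS+Skatole. The first lay 1.74 kb upstream of the Il1a start, with summits at chr2:129311669-129311738. Its summits held 44, 40 and 81 fragments with LPS and 31, 62 and 34 with LPS+Skatole. The second lay at the downstream starts of Il1rn, with summits at chr2:24344994-24345355, 60 bp upstream of the second start at the median. It had 47, 41 and 41 fragments in LPS and 58, 73 and 34 in LPS+Skatole libraries. In units of background the LPS summits were 18.0 to 34.6 times at the Il1a site and 17.5 to 20.5 times at the Il1rn site, above the height at which a DMSO library could list a peak where its local background was that of the genome. In both genes DMSO 1 had a weaker peak elsewhere in the merged region, of 12 fragments at Il1a and 9 at Il1rn.

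**Figure D2:**
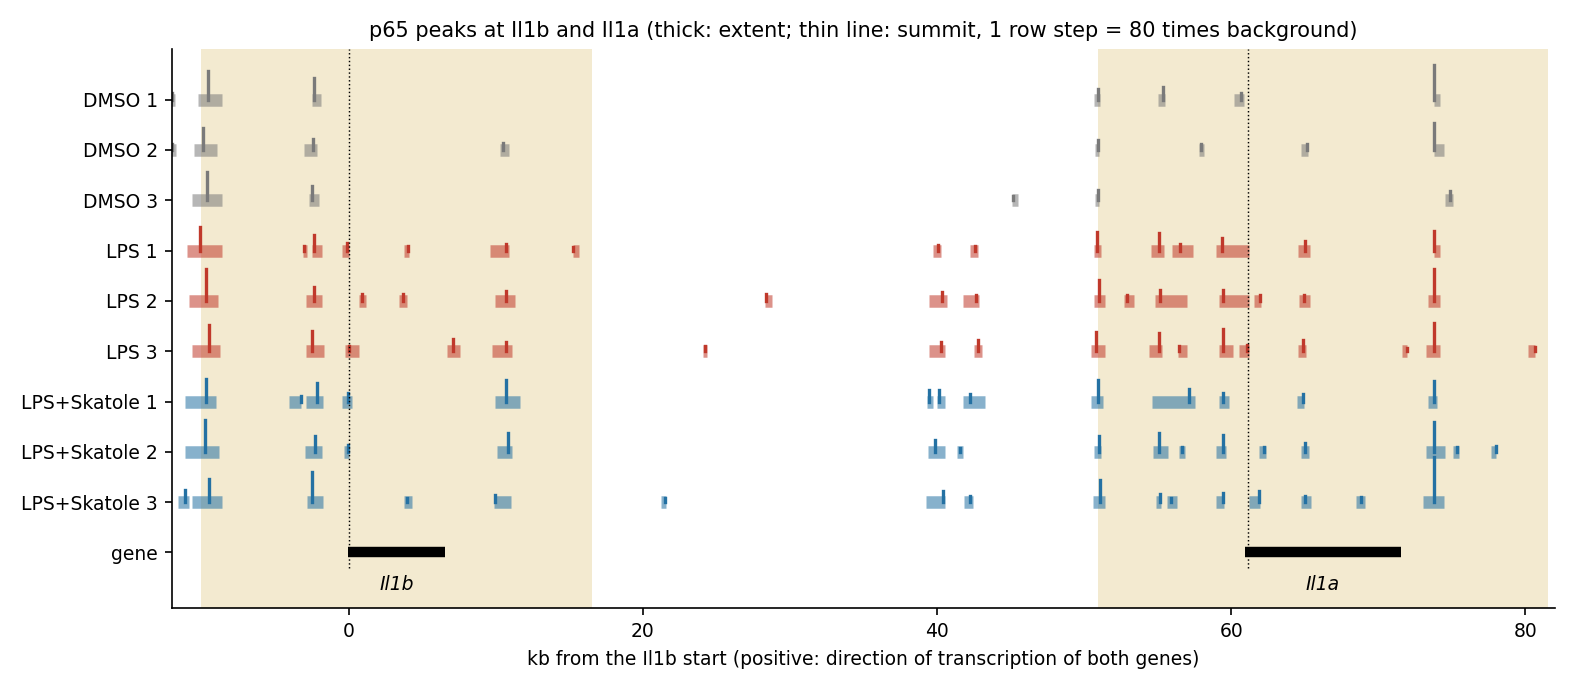
Map of every peak in the 9 libraries (rows) by distance in kb from the Il1b start, with positive values in the direction in which Il1b and Il1a are transcribed. Thick bars are peak extents, thin lines mark summits with a height in times genome background (1 row step is 80), dotted lines are the gene starts, shaded spans are the windows of 10 kb and black bars the genes; the column 59.4 kb from the Il1b start is filled in the 6 LPS and LPS+Skatole libraries and empty in the 3 DMSO libraries.

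At Il1b, 3 regions were called in all libraries of a group. The strongest by mean height in each group lay 9.71 kb upstream of the start, at chr2:129379726-129382779, beside the pseudogene Spcs2-ps. It had 49, 49 and 61 fragments with DMSO, 87, 114 and 96 with LPS and 82, 115 and 89 with LPS+Skatole, or 41.6 ± 5.71, 43.4 ± 6.97 and 41.0 ± 8.59 times background (SD, n = 3). It outranked 90.2% to 98.2% of the peaks of each list. The region 2.35 kb upstream, at chr2:129372845-129374239 within the long non-coding RNA gene Il1bos, had 37, 24 and 30, then 56, 49 and 77, then 68, 57 and 114 fragments, or 24.4 ± 8.64, 26.4 ± 5.69 and 34.0 ± 12.0 times background. Its summits lay within 331 bp of each other in the 9 libraries. In LPS+Skatole 3 it was stronger than the region 9.71 kb upstream (114 against 89 fragments). The region 10.7 kb downstream of the start, at chr2:129359506-129361516, was called in DMSO 2 (15 fragments) and in all LPS (25, 35 and 35) and LPS+Skatole libraries (79, 66 and 26). The value of 26 in LPS+Skatole 3 came from another summit, at 129361188, and the LPS+Skatole 1 and 2 values lay above those of LPS. The peak at the Il1b start, with summits 72 bp upstream at the median, reached 8.53 to 13.2 times background in its 4 libraries.

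At Il1a, 5 regions met the same rule. The farthest upstream, 10.2 kb from the start at chr2:129319697-129320684, at the edge of the window, rose in LPS. It had 19, 23 and 22 fragments with DMSO, 68, 73 and 71 with LPS and 81, 56 and 86 with LPS+Skatole, or 16.7 ± 0.659, 30.9 ± 1.67 and 31.8 ± 6.09 times background (SD, n = 3). Both LPS groups lay clear of DMSO and overlapped each other. How many of all common regions separate in height in this way was not counted. The region over and upstream of the start, chr2:129308787-129312193, had 12 fragments in DMSO 1, then 44, 40 and 81 in LPS and 31, 62 and 42 in LPS+Skatole libraries. The 42 in LPS+Skatole 3 came from another summit, at 129309249, and the site 1.74 kb upstream had 34 fragments there. The region 6.01 kb upstream, chr2:129313599-129316696, had 22 in DMSO 1, then 63, 40 and 66, then 46, 67 and 32. The 46 in LPS+Skatole 1 came from another summit, at 129314034, and that library had none at the site of the other summits (129315805 to 129316056). Inside the gene, 3.83 kb downstream of the start, chr2:129305731-129306662 had 14 in DMSO 2, then 33, 21 and 40, then 29, 31 and 23. In these 3 regions LPS and LPS+Skatole libraries overlapped. The region 12.7 kb downstream, chr2:129295654-129298104, spanned the gap between the neighbouring gene Ckap2l and the long non-coding RNA gene Gm14023. It had 60, 60 and 20 fragments, then 73, 113 and 105, then 78, 107 and 172. In fragments every DMSO library lay below every LPS and LPS+Skatole library. In times background the values were 55.1, 42.9 and 14.7, then 31.8, 50.8 and 44.8, then 33.3, 47.3 and 71.8. On that scale all groups overlapped. The local background was 10.97 to 38.19 fragments in every library but DMSO 3, where it was 1.36 and the summit lay elsewhere in the region.

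At Il1rn, the antagonist gene, 3 regions met the rule and none was called in all 9 libraries. The region 3.60 kb upstream of the second start and inside the gene, chr2:24340513-24342540, had no peak in DMSO 1, 31 and 20 fragments in DMSO 2 and 3, 39, 33 and 59 in LPS and 68, 62 and 61 in LPS+Skatole libraries. The LPS+Skatole libraries lay above the LPS libraries in fragments and, at 25.5 to 29.1 against 14.8 to 25.2 times background, by a small margin in height, a difference that was not tested. Divided by each library's median count over the regions called in all 9 libraries, the values were 0.619, 0.524 and 0.855 in LPS and 0.85, 0.785 and 0.744 in LPS+Skatole, which overlap. The region 1.33 kb upstream of the first start, chr2:24335244-24336134, had none in DMSO 1, then 35 and 23, then 55, 24 and 38, then 32, 44 and 34, and all groups overlapped. The region over the downstream starts, chr2:24344546-24348223, had 9 fragments in DMSO 1, then 47, 41 and 41 in LPS and 58, 73 and 49 in LPS+Skatole libraries. Its tallest summit lay near the starts except in DMSO 1 and LPS+Skatole 3, where it lay at 24346473 and 24346476, 1.18 kb downstream of the second start. In LPS+Skatole 3 the site at the start had 34 fragments.

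**Figure D3:**
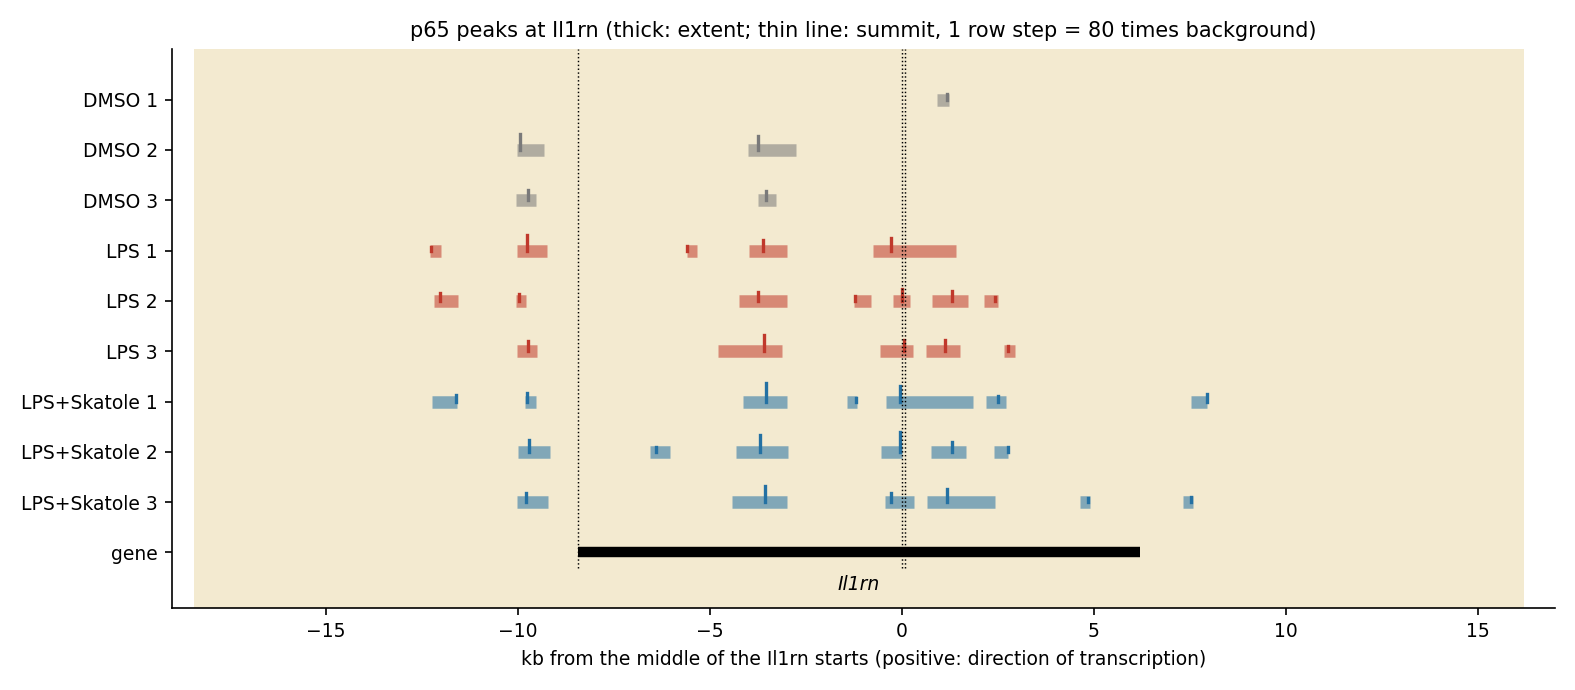
Map of every peak in the 9 libraries (rows) by distance in kb from the second Il1rn start, with positive values in the direction of transcription. Thick bars are peak extents, thin lines are summits with a height in times genome background (1 row step is 80), dotted lines are the 3 starts, the shaded span is the window of 10 kb and the black bar the gene; the column at 0 kb is filled in the 6 LPS and LPS+Skatole libraries and empty in the 3 DMSO libraries.

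At the receptor genes, Il1rap had a peak at its CpG-rich start in all 9 libraries, chr16:26581101-26582942, with summits within 253 bp of each other. It had 31, 47 and 33 fragments with DMSO, 21, 39 and 31 with LPS and 74, 58 and 50 with LPS+Skatole. In times background these were 28.8 ± 4.67, 13.3 ± 4.19 and 26.1 ± 5.39 (SD, n = 3). In these units all 3 LPS libraries lay below every other library, but LPS was also lowest at the median common region, and divided by that median LPS 2 (0.619) lay above LPS+Skatole 3 (0.610). On this second scale LPS still lay below DMSO without overlap. The share of all common regions whose heights separate in this way was not counted on either scale. A region 44.6 kb into the gene, chr16:26625277-26627046, was called in DMSO 2 (31 fragments), in all LPS (41, 38 and 45) and in all LPS+Skatole libraries (40, 53 and 59). The 40 in LPS+Skatole 1 came from a separate summit, at 26625982. Of the other 14 regions at Il1rap, 12 were called in 1 library each. Of the 7 regions at Il1r2, 6 were called in 1 library each. The remaining one, chr1:40109148-40110642, was called in 1 library of each group with 8, 12 and 14 fragments, near the lowest count that could be listed.

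**Figure D4:**
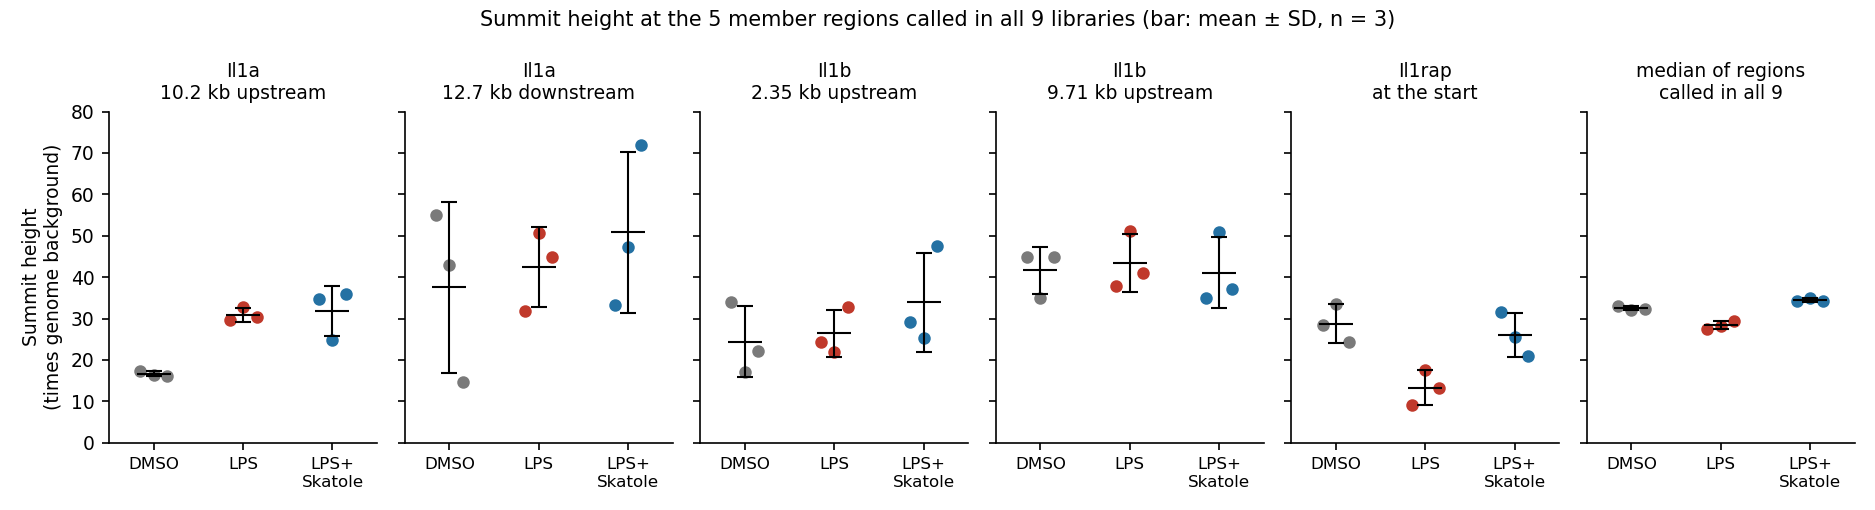
Summit height in times genome background (vertical axis) at the 5 member regions called in all 9 libraries, with distance from the gene start, and, at the right, the median over all regions called in all 9. Points are libraries, the long bar is the mean and the whiskers the SD of 3 libraries; DMSO lies lowest at the region 10.2 kb upstream of Il1a and LPS lies lowest at the Il1rap start and at the median region.

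Heights at the 5 regions called in all 9 libraries were compared with limma on log2 summit counts, centred on each library's median over the 13824 such regions and adjusted over all of them. The Il1a region 10.2 kb upstream was 1.08 ± 0.28 higher (log2 ± SE; 95% limits 0.54 to 1.63) in LPS than in DMSO (limma, adjusted p = 0.0267). It was the only member region called, 1 of 5, where 1.43% of all regions were higher and 0.687% lower. The call was narrow. Without any one of the DMSO or LPS libraries the adjusted p ranged from 0.0504 to 0.119, and with counts scaled to genome background it was 0.0517 (log2 difference 0.89). In LPS+Skatole against DMSO the difference was 0.83 (limma, adjusted p = 0.0533), and 0 of 5 member regions passed, against 4.16% of regions higher and 4.88% lower. Between LPS+Skatole and LPS it was -0.26, with limits of -0.81 to 0.29 (adjusted p = 0.785, limma), and again 0 of 5 passed, against 0.0723% of regions higher and 0.174% lower.

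The Il1rap start was 0.95 lower on the log2 scale in LPS than in DMSO (difference -0.95 ± 0.31, limits -1.56 to -0.35, limma adjusted p = 0.0911) and 0.72 higher in LPS+Skatole than in LPS (limits 0.12 to 1.32, adjusted p = 0.358). Scaled to genome background these differences were -1.15 (limma, adjusted p = 0.0232) and 1.00 (adjusted p = 0.0722), so among the scalings tried the fall in LPS passed the threshold on that scale only. That scaling moved the median of all regions by -0.20 for LPS against DMSO and by 0.28 for LPS+Skatole against LPS, and the median height of common regions was 32.2 to 33.0 times background with DMSO, 27.5 to 29.4 with LPS and 34.2 to 34.9 with LPS+Skatole. It also turned the split of calls over all regions, from 198 higher and 95 lower in LPS against DMSO to 110 and 585.

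Neither Il1b region passed the test in height. The region 2.35 kb upstream differed by 0.35 between LPS and DMSO (limits -0.23 to 0.93, limma adjusted p = 0.657) and by 0.05 between LPS+Skatole and LPS (limits -0.53 to 0.63, adjusted p = 0.973). The region 9.71 kb upstream differed by 0.25 (limits -0.21 to 0.71, limma adjusted p = 0.691) and by -0.37 (limits -0.83 to 0.09, adjusted p = 0.593). At the region 12.7 kb downstream of Il1a the limits were wider, -0.37 to 1.47 for LPS against DMSO and -0.99 to 0.86 for LPS+Skatole against LPS. All 6 of these intervals hold 0 and also differences of at least 0.63 in one direction, so a change of that size in that direction is not excluded.

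Rank within a list needs no scaling but moves with its length. The Il1a region 10.2 kb upstream ranked 17280, 18370 and 18933 from the top by p in the DMSO lists, 5390, 4411 and 5759 in the LPS lists and 6413, 12272 and 10302 in the LPS+Skatole lists. It stood nearer the top in every LPS list than in any DMSO list, and farther in every LPS+Skatole list than in any LPS list. As a share of the list outranked it was 53.8% to 57.7%, 90.3% to 92.4% and 84.3% to 91.8%, where LPS and LPS+Skatole overlap. The Il1b region 9.71 kb upstream ranked 2556, 4266 and 2523, then 2294, 1024 and 2223, then 4794, 1844 and 4213, and also stood nearer the top in LPS than in DMSO without overlap. These 2 of 5 regions compare with 8.15% of all common regions for LPS nearer the top than DMSO, and 1 of 5 with 8.85% for LPS+Skatole farther from the top than LPS. The Il1rap start ranked 5865, 4171 and 7610 in DMSO, 27280, 10643 and 17380 in LPS and 5421, 8598 and 11933 in LPS+Skatole lists. It was farther from the top in LPS than in DMSO, as were 10.0% of common regions. As a share of the list outranked it was 81.4% to 90.4% with DMSO and 51.0% to 81.7% with LPS, and on that measure these groups overlapped. The joint exact permutation p was 0.00357 for the Il1a region, the smallest possible, 0.0452 for Il1rap (0.0571 to 0.0929 without any one of 7 of the libraries) and 0.236 for the Il1b region, and no region passed after adjustment over all 13824 (exact permutation test, smallest adjusted p = 0.217; 1803 regions had an unadjusted p under 0.05). On the share of the list outranked, the joint exact permutation p was 0.0107 for the Il1a region, 0.0321 for Il1rap and 0.0393 for the Il1b region 9.71 kb upstream, without adjustment.

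Over the 9 libraries the centred height of the Il1b region 2.35 kb upstream was most like those of regions near Apold1 (Pearson r = 0.90), Irf2bpl (0.89) and Mccc1 (0.88), and that of the region 9.71 kb upstream like those near Cebpzos (0.93), Zdhhc1 (0.91) and 1110038F14Rik (0.91). These are the 3 highest of 7320 regions in each case and are given as a description.

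Of 24 other genes of the IL-1 pathway, 23 matched the gene table and all 23 had a peak within 10 kb, 12 of them in all 9 libraries, where 89.1% of all protein-coding genes had a peak and 54.2% had one in all 9. Peak numbers were higher without overlap in LPS than in DMSO for 5 of the 23 (12.2% of all genes), in LPS+Skatole than in DMSO for 12 (25.4%) and in LPS+Skatole than in LPS for 4 (9.10%), and lower for none. The signalling receptor gene Il1r1 had 2, 1 and 3 peaks with DMSO, 4, 2 and 4 with LPS and 8, 7 and 5 with LPS+Skatole, the last above both other groups. Irak3, which encodes an inhibitory kinase of the pathway, had 4, 4 and 7, then 10, 11 and 11, then 13, 14 and 13 peaks, with no overlap between any groups. Irak2, a signalling kinase gene, had 15, 12 and 13, then 23, 21 and 25, then 22, 25 and 23 peaks. Sigirr, which encodes a receptor that dampens IL-1 signalling, had 2, 1 and 1, then 3, 3 and 3, then 4, 5 and 3. Il18rap, the accessory receptor gene for IL-18, had 2, 2 and 2, then 2, 2 and 1, then 3, 3 and 4. Il36g (listed as Il1f9), a ligand of the IL-36 branch, had 0 peaks in the DMSO and LPS libraries and 1 in each LPS+Skatole library. The 4 genes whose numbers in LPS+Skatole lay above those in LPS were Il1r1, Irak3, Il18rap and Il36g, and none of the 5 members was among such genes.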

How the data were processed

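p65 CUT&Tag was read in 9 libraries of RAW264.7 cells. The submitters' processing notes name fastp 0.20.1, HISAT2 2.1.0, StringTie 2.0 and the build mm10 (GRCm38). The peak caller, the treatment of duplicates and the use of a control are not given in the sources used here. The deposited narrowPeak lists were made by the authors, one for each library. Each row has a score, a fold (the ratio of summit pileup to local background), a −log10 p and a −log10 q, all as deposited by the authors. Total reads were not used here. The score was not tested. The deposited −log10 q served only as a filter.

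Summit fragment counts and local backgrounds were recovered from the fold, taken as (count + 1)/(background + 1), and from p, taken as a Poisson upper tail. Over 99.99% of counts in each list came out whole within 0.02. The genome background was the lowest local background. Only the 19 autosomes, X and Y were kept. Peaks that overlapped by at least 1 bp were merged into regions. Genes came from RefSeq (GRCm38.p6), and all 5 members matched. The table gives no exons or untranslated regions. Groups followed the labels.

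Pairs of groups were compared with two-sided exact permutation tests. The 3 groups were compared jointly over 280 divisions by the between-group sum of squares, which has no direction. Summit counts were compared with limma 3.58.1 (trend and robust) in R 4.3.3, with Benjamini-Hochberg adjustment and a threshold of 0.05. Other steps used Python 3.11.15, pandas 2.3.3 and SciPy 1.17.1. The steps were tested on simulated data. Regions were described one by one where all 3 libraries of a group had a peak, and by counts otherwise. At most 6 other pathway genes were named. More than 6 qualified, and the 6 with the smallest joint p were taken, a choice made after their values were seen. The members and the gene lists were chosen with earlier results of these data known. Alternatives varied the window, the list length, the height and q filters, the scaling, the ranking value, a block for replicate number and each library left out.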

Additional observations from a re-analysis of the deposited data

How the results depend on the processing

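Of 297 comparisons of a count with its alternative, 222 stayed within 1.5 times the reported count. The number of members with more peaks in LPS+Skatole than in DMSO fell from 4 to 1 with lists of equal length and to 2 at 8 times background. Windows of 3 and 50 kb each gave 1 member, Il1b, with fewer peaks in LPS+Skatole than in LPS. Without 1 library this count ranged from 0 to 1 (Il1b without LPS+Skatole replicate 1) and the count with more peaks from 0 to 2 (Il1rn and Il1rap without LPS replicate 2). Member regions gained, 0 as reported, were 2 in LPS and 2 in LPS+Skatole against DMSO with regions built from summits, and, in the order LPS over DMSO, LPS+Skatole over LPS, LPS+Skatole over DMSO, 3, 2 and 3 when 2 of 3 libraries sufficed. Without 1 library they ranged from 0 to 3, 0 to 1 and 0 to 3, the highest without DMSO replicate 1 or 2 for both counts against DMSO and without LPS+Skatole replicate 1 or 2 for the other.

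The number of member regions with a changed summit, 1 in LPS against DMSO, was 0 with the authors' fold and 0 to 1 without 1 library. In LPS+Skatole against DMSO it was 1 with genome background, 1 with limma without trend or robust, and 0 to 1 without 1 library. Over all regions the calls, higher then lower, were as follows. Genome background gave 110 and 585 in LPS against DMSO (198 and 95 as reported), and in LPS+Skatole 247 and 5 against LPS (10 and 24 as reported) with 361 lower against DMSO (674 as reported). Limma without trend or robust gave 65 and 13, 0 and 0 (1378 at an unadjusted p under 0.05), and 382 and 238 (575 higher as reported). The authors' fold gave 34 and 10, 3 and 3, and 158 and 64. Quantile normalisation gave 35, 13 and 275 lower. With uncalled libraries set to the smallest callable count, 796 were higher in LPS against DMSO, 649 and 368 changed in LPS+Skatole against LPS, and 2754 were higher in LPS+Skatole against DMSO, over 30565 regions. Without 1 library the counts ranged from 86 to 192 and 39 to 97, 3 to 12 and 8 to 29, and 359 to 543 and 374 to 607. The causes were not tested, except that leaving out a library also removes a sample.

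Differences that turned sign had missed the threshold after adjustment. For Il1rap peak number in LPS+Skatole against LPS the difference was -0.667 with equal lists and -0.333 at 8 times background (1.33 as reported). Without 1 library the Il1r2 difference ranged from -1 to 0.167 (LPS against DMSO) and from -0.167 to 1.33 (LPS+Skatole against LPS). For the region 12.7 kb downstream of Il1a the log2 difference was -0.284 (LPS against DMSO) and -0.824 (LPS+Skatole against DMSO) with the authors' fold and 0.216 (LPS+Skatole against LPS) with genome background. Without 1 library it ranged from -0.0223 to 0.915 (LPS against DMSO), -0.0860 to 0.851 (LPS+Skatole against DMSO) and -0.353 to 0.199 (LPS+Skatole against LPS), and without DMSO replicate 3 the first 2 were negative. Its rank difference (LPS against DMSO) was 18301 by fold and -7179 to 1270 without 1 library, and for LPS+Skatole against LPS -1313 to 22671. For the region 10.2 kb upstream of Il1a the log2 difference was 0.0216 (LPS+Skatole against LPS) with genome background. For the Il1b region 2.35 kb upstream it ranged from -0.228 to 0.245 (LPS+Skatole against LPS) without 1 library, and its rank difference from -1696 to 3196.

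Replicate numbers did not pair the libraries (correlations of deviations between -0.0123 and 0.0141). With a replicate block, 185 regions were higher and 83 lower in LPS against DMSO, the Il1a region 10.2 kb upstream kept its call (limma, adjusted p = 0.0341), and the blocked exact permutation p was 0.0278 for Il1b, the smallest possible, and 0.0833 for Il1rn. The depth of the DMSO libraries limits what can be called absent there, and 3 libraries per group limit the tests.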

Other observations

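The stretch between the windows of Il1a and Il1b, chr2:129320187-129354568 (34.4 kb), belonged to neither gene by the rule. It held 6 regions, of which 2 were absent from all DMSO libraries and called in all 3 LPS and all 3 LPS+Skatole libraries. Of all regions with a peak in either group, 1.65% were gained in this way in LPS over DMSO and 2.36% in LPS+Skatole over DMSO. At chr2:129327892-129329780 the summits had 18, 21 and 42 fragments in LPS and 29, 13 and 22 in LPS+Skatole libraries. At chr2:129330493-129331904 they had 20, 31 and 36 in LPS and 44, 42 and 44 in LPS+Skatole libraries. In the first region the summits of LPS 1 and LPS+Skatole 2 were 7.84 and 5.75 times background, close to and below the 6.44 to 7.34 times that a DMSO library needed to list a peak. These regions lay 18.5 and 20.7 kb from the nearer end of Il1a and 35.9 and 33.7 kb from that of Il1b. The other 4 regions were each called in 1 library. No merged region within 10 kb of a member showed this pattern.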
